A study of Mus musculus with 9 samples.

Results

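The genes described here encode nuclear subunits of the mitochondrial respiratory chain and ATP synthase (complexes I to V), measured in mouse peritoneal macrophages cultured with or without colon carcinoma cells. They were taken by gene name: every probe whose name begins with Ndufa, Ndufb, Ndufc, Ndufs, Ndufv, Uqcr, Cox4, Cox5, Cox6, Cox7, Cox8 or Atp5, with Cyc1 and the 4 succinate dehydrogenase genes, and without the assembly factors named Ndufaf. This gave 87 of 23893 named genes, on 130 of 55681 probes. Of these, 75 encode subunits found in most tissues, called general subunits below, and 8 encode tissue-restricted or inducible isoforms. The other 4 share a prefix but are not subunits: Cox4nb (now Emc8), Atp5s (Dmac2l), Atp5sl (Dmac2) and Cox7a2l, a factor of respiratory supercomplexes.

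Group T held macrophages co-cultured for 24 h with the mouse colon carcinoma line CT-26 in the lower chamber of a Transwell, a well divided by a porous membrane. Group M held migratory macrophages from the upper chamber of such a co-culture, for a time not given in the sources used here. Group Ctrl was kept for 24 h in regular medium alone. Cells of all groups came from male mice and were sorted as CD45+ F4/80+ by flow cytometry, and each group had 3 one-colour arrays of total RNA. The cell type label of the T arrays calls them migratory, whereas titles, descriptions and protocol give that name to M. The groups here follow the titles. The labels do not say whether replicate arrays stem from different cultures or mice, so each p-value refers to the spread of these 9 samples, part of which may be technical. Mouse strain and age are not given in the sources used here.

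The respiratory chain passes electrons from NADH (complex I) and succinate (complex II) through coenzyme Q to complex III, and by cytochrome c to complex IV, where oxygen is reduced. Complexes I, III and IV pump protons across the inner membrane, and complex V (ATP synthase) makes ATP as they return. Macrophages activated by inflammatory stimuli are known to turn from respiration to glycolysis, and succinate oxidation at complex II is known for a part in inflammatory signalling.

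A level below is the log2 processed signal of a gene's brightest probe minus the array's 75th percentile, and a difference is a log2 difference of such levels between groups. A gene was tested where its probe passed the scanner's test of being well above background throughout 1 or more groups, and called where limma's adjusted p over 18262 genes was under 0.05. Between 60.5% and 78.7% of probes were well above background on an array. The 3 T arrays had a slide and scan of their own, and the M and Ctrl arrays shared another. A difference of T from M or Ctrl therefore cannot be told apart from a difference between slides, while M and Ctrl were compared within a slide. The 6 macrophage markers (Ptprc, Adgre1, Cd68, Csf1r, Itgam and Lyz2) were well above background on all arrays. Their summed linear level, in units of the array's 75th percentile, was 126 to 179 in T, 154 to 219 in M and 169 to 217 in Ctrl. Single markers differed, however. Adgre1 had a mean level of 3.37 in M and 0.51 in Ctrl (limma adjusted p = 1.33e-05). Lyz2 stood at 4.50 in T, 5.44 in M and 3.92 in Ctrl (adjusted p = 0.0295 and 0.000336 against Ctrl). Ptprc was higher in M (adjusted p = 0.0221), and Cd68, Csf1r and Itgam were not called against Ctrl. No list of markers of 6 other cell types summed to more than 2.4 on an array. The epithelial list, which would mark carcinoma cells, summed to 0.6 to 0.705 in T, 0.18 to 0.239 in M and 0.22 to 0.354 in Ctrl, with 1 of its 5 markers above background on all arrays and Cdh1 on no T or M array. Krt19 carried the sum in T (mean log2 level -1.02 in T and -4.65 in Ctrl), while Epcam was lower in T (-5.88 in T and -4.27 in Ctrl, adjusted p = 0.00220), and Krt18 was not called. The granulocyte list summed to 0.571 to 0.817 in T, 2.28 to 2.4 in M and 0.204 to 0.508 in Ctrl, with 3 of 4 markers above background on all arrays. S100a8 carried it (-0.765 in T, 1.141 in M and -3.828 in Ctrl), while Elane was lower in T (-5.20 in T and -2.64 in Ctrl, adjusted p = 0.00516), as was Mpo (adjusted p = 0.0486). The part of these cells in the results below was not tested. In bulk RNA, fewer cells of a type and less RNA per cell cannot be told apart.

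The general subunits differed little between groups, and the called genes were mostly isoforms of complex IV. Of the 87 genes, 85 were tested, and the testis isoforms Cox7b2 and Cox8c were well above background on no array. In T against Ctrl, 3 of the 85 rose and 2 fell by limma, where 44.7% of all genes tested were called, 17.6% higher and 27.2% lower. All 5 were tissue-restricted or inducible isoforms. Cox8b, among the 2 falls, passed the background filter through Ctrl alone. None of the 75 general subunits was called in T by limma, and 5 of them had an unadjusted p under 0.05. In M against Ctrl, none of the 85 rose and 2 fell (Sdhd and Cox6a2), where 23.4% of all genes were called, 12.2% higher and 11.1% lower. An unadjusted p under 0.05 was reached by 6 of the 85 in M. Across 23 other settings the count of general subunits called in T was 0 in 14 and reached 6, or 35 with array weights, under which 78.2% of all genes were called.

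The differences of the general subunits were small. In T against Ctrl they ranged from -0.49 for Ndufa12 to 0.48 for Ndufs5, and all 75 of their 95% intervals lay within 2-fold in either direction (-0.97 to 0.99 over all of them). Over all genes tested, 45.6% had an interval within 2-fold. In M against Ctrl the differences ranged from -0.68 for Sdhd to 0.59 for Ndufab1, and 71 of 75 intervals lay within 2-fold, against 53.5% of all genes. By the brightest probe, a difference of over 1 log2 unit was found for 0 of the 75 in T and in M. Of all genes, 28.2% had one in T and 16.9% in M. Some dimmer tested probes of general subunits did differ by over 1 log2 unit. In T these were probes of Ndufb11 (1.11) and Ndufb5 (-1.20). In M they were probes of Atp5f1 (-1.56) and Ndufb5 (-1.27 and below). The remaining tested probes of general subunits did not. The T and Ctrl arrays did not overlap for 12 general subunits, where 53.3% of all genes showed no overlap, and the M and Ctrl arrays for 7, where 36.2% did.

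**Figure D1:**
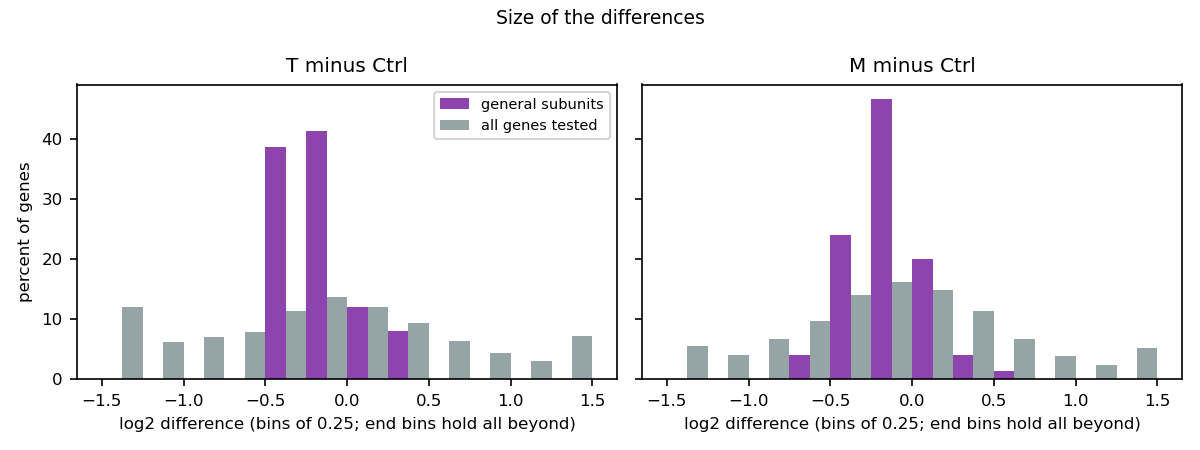
Share of genes (percent, vertical axis) by log2 difference (horizontal axis, bins of 0.25, end bins holding all values beyond) for T minus Ctrl and M minus Ctrl, with the 75 general subunits beside the 18262 genes tested. All 75 subunits lie within 0.5 of 0 for T minus Ctrl, where 46.2% of all genes do.

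More general subunits lay below 0 than above it, and this balance turned with the scaling of the arrays. In T against Ctrl 60 of 75 differences were below 0 with a median of -0.187, beside -0.138 for all genes. In M against Ctrl 56 of 75 were below 0 with a median of -0.131, beside -0.091 for all genes. Of the 18262 genes tested, 10555 were below 0 in T and 10196 in M. With each array scaled to its median instead, the subunit median was 0.235 in T and 0.175 in M, and that of all genes 0.285 and 0.209. Set against the median of all genes, the subunits stood at -0.049 in T, at -0.050 with median scaling and at 0.023 with quantile normalization. In M they stood at -0.040, -0.035 and 0.017 under the same 3 settings. Median scaling also turned the calls: 9 members rose and none fell in T, 6 of the 9 being general subunits, and 66.1% of all calls in T were higher, against 39.3% with the 75th percentile. Quantile normalization gave 52.7% higher in T. The counts below 0 given for each complex hereafter are those of the 75th percentile scaling, and other scalings were not counted by complex. In M against Ctrl 74.5% of calls were higher with median scaling and 66.3% with quantile normalization, against 52.4%.

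Of the 75 general subunits, 74 lay among the 3653 brightest of the tested genes by mean signal. Of those 3653, 16.5% were called in T against Ctrl and 8.19% in M against Ctrl. Dimmer genes, in bins of 3652 or 3653, were called more often: 33.2% to 68.9% in T and 21.7% to 29.7% in M. The isoforms Cox4i2, Cox6b2, Cox8b and Ndufa4l2 had levels below 0 on every array. Whether isoforms and general subunits differ at like signal was not tested. Genes with several probes showed how far the choice of probe decides a value: 28 members had more than 1 tested probe, and the probes of a gene had the same sign in 18 of them in T against Ctrl and in 17 in M against Ctrl. The median range between probes of a gene was 0.24 in T and 0.20 in M against Ctrl, and the widest was that of Ndufb5 (1.59 and 1.62). Agreement was lower in M against T, with the same sign in 11 of the 28. The median range there was 0.30 and the widest, again of Ndufb5, 1.90.

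The general subunits moved together between arrays of the same group. Their array medians were 4.89, 4.46 and 4.62 on T1 to T3, 4.51, 4.89 and 4.63 on M1 to M3, and 4.88, 4.69 and 5.01 on Ctrl1 to Ctrl3, and the groups overlapped. On T1, 71 of 75 subunits lay above their own T mean, against 4 of 74 on T2 and 9 of 73 on T3. On M2, 72 of 75 lay above their M mean, against 4 on M1 and 21 on M3. On Ctrl3, 64 of 74 lay above their Ctrl mean, against 42 of 75 on Ctrl1 and 4 of 75 on Ctrl2. The median deviation was 0.247 on T1 beside 0.0715 for all genes, and 0.228 on M2 beside 0.115. It was larger in size than that of all genes on 8 of 9 arrays, and on Ctrl1 it was smaller and of opposite sign (0.027 beside -0.045). The median SD of a general subunit was 0.238 in T, 0.222 in M and 0.193 in Ctrl, beside 0.172, 0.223 and 0.305 for all genes.

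**Figure D2:**
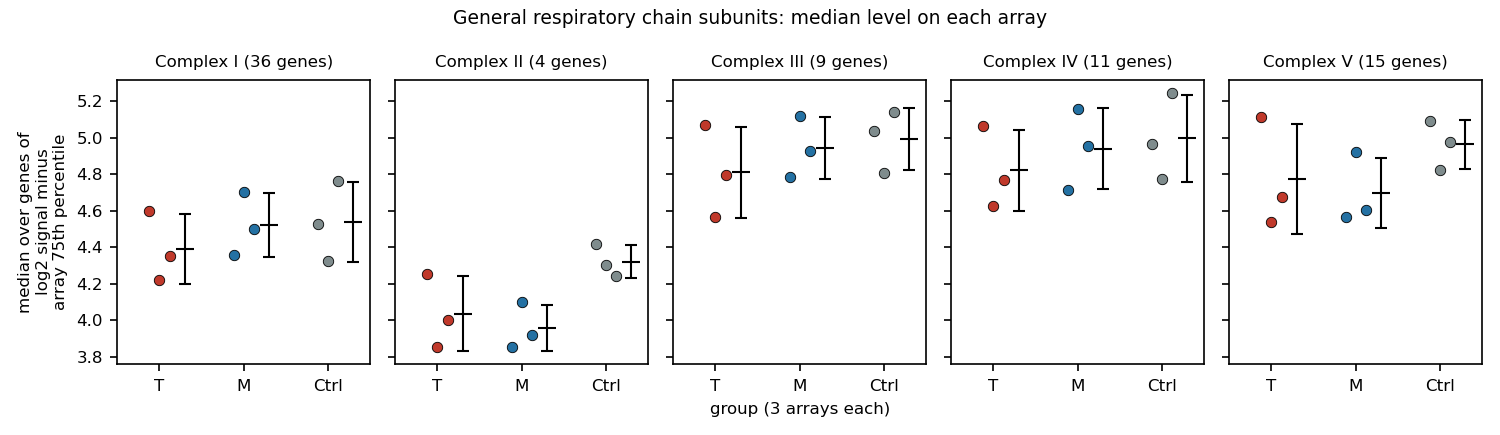
Median level of the general subunits on each array (vertical axis, log2 signal minus the array's 75th percentile) by complex and group, with 1 point per array and the mean ± SD of 3 arrays. T1 and M2 lie highest in their groups in every panel, and in complex II all M arrays (3.85 to 4.10) lie below all Ctrl arrays (4.24 to 4.42).

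The promoters were searched for 3 motifs, and most general-subunit promoters lacked each of the first 2. The RefSeq promoter table (GRCm38.p6) gives 300 bases around each gene start, most of them before it, and held 68 promoters of 63 general subunits. The letters GCGCANGCG, a core of the binding motif of nuclear respiratory factor 1, were found on either strand in 21 of the 68 (30.9%), against 6.25% of all 32851 promoters. CCGGAAG, an ETS-type motif of the kind bound by nuclear respiratory factor 2, was found in 16 of 68 (23.5%), against 8.86% of all promoters, and was added to the search after the first motif had been counted. ACGTG or GCGTG, the core of the hypoxia response element, was found in 44 of 68 (64.7%), against 43.8%. The searches for the first motif and the hypoxia core overlap, since a GCGCANGCG match with C as its N holds GCGTG on the other strand. In the 4 isoform promoters of the table (Cox6b2, Cox7a1, Cox7b2 and Cox8b), 0 held the first motif, 0 the ETS letters and 3 a hypoxia core. The last 150 bases before the start follow for 4 general subunits called in a comparison or, for Sdha, described beside Sdhd, and for the isoform Cox7a1, written 5′ to 3′ on the gene's strand. Capitals mark matches of GCGCANGCG and CCGGAAG on either strand.
Sdha, chr13:74350241-74350390, minus strand: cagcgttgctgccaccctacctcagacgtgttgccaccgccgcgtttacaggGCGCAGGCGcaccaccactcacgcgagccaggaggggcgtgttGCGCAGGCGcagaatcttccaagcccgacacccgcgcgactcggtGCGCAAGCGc
Sdhd, chr9:50603850-50603999, minus strand: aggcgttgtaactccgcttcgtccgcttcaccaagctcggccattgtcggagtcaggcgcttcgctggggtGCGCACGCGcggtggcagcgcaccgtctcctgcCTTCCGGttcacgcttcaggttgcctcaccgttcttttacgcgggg
Ndufs5, chr4:123718187-123718336, minus strand: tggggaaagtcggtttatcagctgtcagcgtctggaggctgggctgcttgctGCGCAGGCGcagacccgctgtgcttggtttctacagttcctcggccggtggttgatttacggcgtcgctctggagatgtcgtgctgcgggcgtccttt
Atp5g3, chr2:73911327-73911476, minus strand: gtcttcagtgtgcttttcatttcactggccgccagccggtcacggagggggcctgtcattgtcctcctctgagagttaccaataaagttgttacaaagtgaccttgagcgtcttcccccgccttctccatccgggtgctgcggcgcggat
Cox7a1, chr7:30184021-30184170, plus strand: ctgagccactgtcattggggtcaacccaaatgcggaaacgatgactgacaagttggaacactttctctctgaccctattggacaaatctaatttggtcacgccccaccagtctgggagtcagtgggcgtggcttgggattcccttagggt
Sdha holds 3 matches of the first motif, Sdhd holds 1 and an ETS match, and Ndufs5 holds 1. Atp5g3 and Cox7a1 hold neither motif in this stretch, but the 300 bases of Atp5g3 hold 1 match of the first motif outside it. These are matches of letters, and binding was not measured.

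Complex I, which oxidises NADH, gave 36 general subunits, and none was called in T or in M against Ctrl. The median difference was -0.15 in T, where 25 of 36 were below 0, and 22 of 36 were below 0 in M. Ndufs1, the large subunit with iron-sulfur clusters, differed by -0.36 in T (95% interval -0.85 to 0.12) and by 0.07 in M (-0.42 to 0.55). Ndufv1, the flavoprotein subunit that binds NADH, differed by -0.04 in T (-0.49 to 0.42) and by 0.13 in M (-0.32 to 0.59). The accessory subunit Ndufa12 had levels of 4.88, 4.36 and 4.50 on the T arrays, against 5.24, 4.80 and 5.18 on the Ctrl arrays. T1 lay above Ctrl2, and the difference of -0.49 ± 0.20 (SE) was not called (limma adjusted p = 0.0739). With the replicate number as a block it was called lower when T and Ctrl arrays alone were fitted, a setting chosen after seeing the data (adjusted p = 0.0499), and not when all 9 were (adjusted p = 0.106). Ndufab1, the mitochondrial acyl carrier protein, had levels of 2.43, 2.61 and 2.49 on the M arrays, against 1.60, 1.72 and 2.44 on the Ctrl arrays. Ctrl3 overlapped the M arrays, and the difference of 0.59 ± 0.22 was not called (adjusted p = 0.0743). The outlier marks on spots left Ndufs6 without T3 and Ndufb11 without T2.

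Ndufs5, an accessory subunit of complex I on the intermembrane side, was lower in M than in T. Its probe lies on chromosome 4 from 123389974 to 123390033 (mm9, minus strand). Levels were 2.89, 3.46 and 2.81 on the M arrays, against 4.29, 3.89 and 3.85 on the T arrays, with Ctrl at 3.65, 3.27 and 3.67. All M arrays lay below all T arrays, and the difference of -0.96 ± 0.23 was called (adjusted p = 0.0122). Neither group was called against Ctrl: T differed by 0.48 ± 0.23 (adjusted p = 0.108) and M by -0.48 ± 0.23 (adjusted p = 0.140). The call of M against T ended without M3 (adjusted p = 0.0507), and without M1 and M3 together the difference was -0.55 (adjusted p = 0.255).

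Complex II, succinate dehydrogenase, also belongs to the tricarboxylic acid cycle. By their brightest probes, its 4 genes had differences below 0 in both T and M. Sdhd, a membrane anchor subunit that takes part in coenzyme Q binding, was the general subunit called against Ctrl, in M. Its probe lies on chromosome 9 from 50404630 to 50404689 (mm9, minus strand). Levels were 4.41, 4.59 and 4.26 on the M arrays, against 5.28, 5.14 and 4.88 on the Ctrl arrays. All M arrays lay below all Ctrl arrays, and Sdhd was 1.60-fold lower in M (difference -0.68 ± 0.20, adjusted p = 0.0374). The T arrays read 5.10, 4.54 and 4.70 and overlapped both groups (difference from Ctrl -0.32, adjusted p = 0.213). The call in M ended without Ctrl1, Ctrl2, M1, M3, T2 or T3 (adjusted p = 0.124, 0.109, 0.0984, 0.123, 0.0504 and 0.0585). It was lost in 12 of 22 other settings, which also include median scaling (-0.38, adjusted p = 0.180) and quantile normalization (-0.46, adjusted p = 0.0562), the authors' deposited value table (adjusted p = 0.0646) and a fit of the 2 groups compared alone (adjusted p = 0.0647). Without Ctrl1 and Ctrl2 together it was -0.46 (adjusted p = 0.418), and with M2 as the lone M array -0.51 (adjusted p = 0.429). The difference was below 0 in all 22.

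The other 3 genes of complex II were not called in any comparison. Sdha, the flavoprotein that oxidises succinate, had levels of 2.81, 2.82 and 2.80 in T, 2.88, 2.81 and 2.73 in M, and 2.80, 2.88 and 3.18 in Ctrl. These groups overlapped, with Ctrl3 above the rest. Sdhb, the iron-sulfur subunit, had levels of 5.026, 4.639 and 4.766 in T, 4.813, 5.297 and 4.744 in M, and 5.340, 4.996 and 5.386 in Ctrl. T1 lay above Ctrl2, and the difference in T of -0.43 had an interval of -0.89 to 0.03 (adjusted p = 0.115). Sdhc, the other membrane anchor, had levels of 3.48, 3.17 and 3.30 in T, 3.29, 3.60 and 3.58 in M, and 3.55, 3.61 and 3.60 in Ctrl. All T arrays lay below all Ctrl arrays, and the difference of -0.27 was not called (adjusted p = 0.208). Another tested probe of Sdhc differed by 0.12 in T, of opposite sign, and by -0.18 in M.

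**Figure D3:**
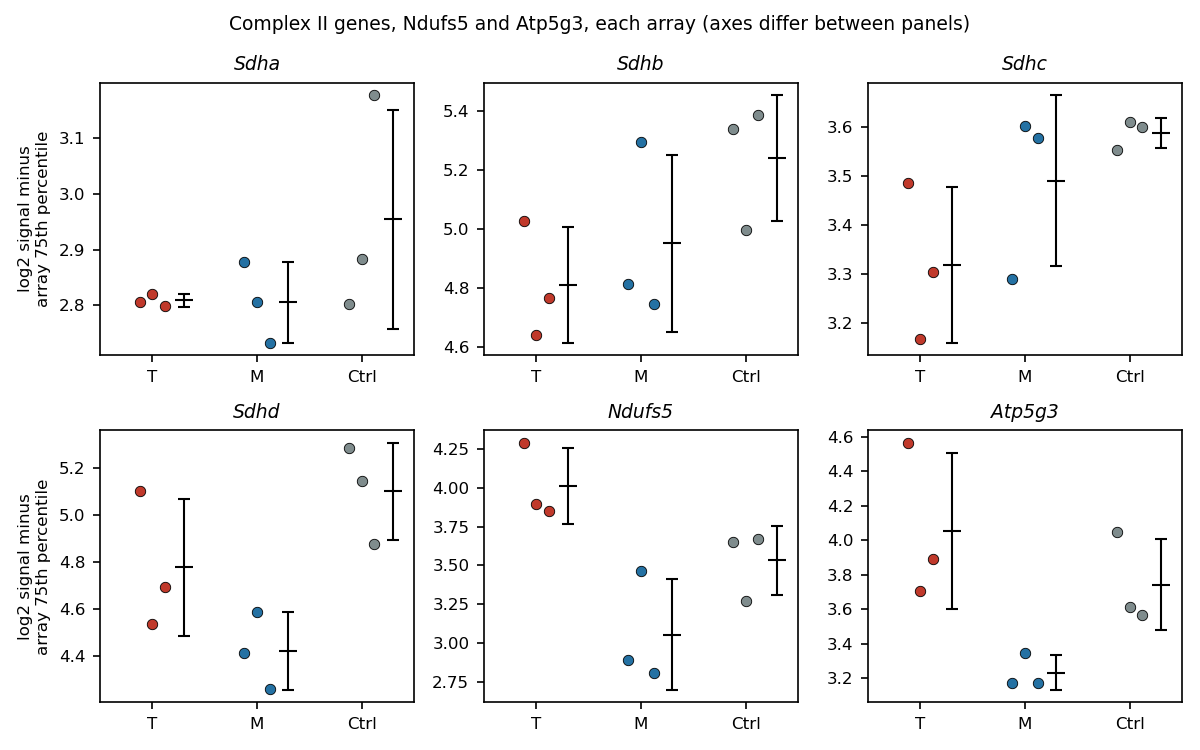
Levels on each array (vertical axes, log2 signal minus the array's 75th percentile, scaled separately in each panel) of the 4 complex II genes and of Ndufs5 and Atp5g3, with 1 point per array and the mean ± SD of 3 arrays. The M arrays of Sdhd lie between 4.26 and 4.59, below all Ctrl arrays (4.88 to 5.28).

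Complex III, which passes electrons from coenzyme Q to cytochrome c, gave 9 genes and no call. The median difference was -0.19 in T and -0.11 in M. Uqcrc1, a core subunit, had levels of 4.88, 4.32 and 4.45 in T, 4.35, 4.94 and 4.88 in M, and 5.03, 4.61 and 5.14 in Ctrl. The groups overlapped, and its difference in T of -0.38 was the lowest of the complex (adjusted p = 0.220). The Rieske iron-sulfur subunit Uqcrfs1 differed by 0.07 in T (95% interval -0.33 to 0.46) and by -0.06 in M (-0.45 to 0.33). Cytochrome c1, encoded by Cyc1, differed by -0.27 in T (-0.71 to 0.18) and by -0.11 in M (-0.56 to 0.34). Uqcrb was fitted without T3, whose spot was marked as an outlier.

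Complex IV, cytochrome c oxidase, gave 11 general subunits, Ndufa4 included since its protein is held to belong to this complex, and none was called. In T 10 of 11 were below 0, with a median of -0.12, and in M 10 of 11, with a median of -0.26. Cox4i1, the common form of subunit 4, differed by -0.09 in T (95% interval -0.60 to 0.42) and by -0.12 in M (-0.63 to 0.39). Cox5a differed by -0.24 in T (-0.63 to 0.16) and by -0.32 in M (-0.71 to 0.08). Cox7b, a small structural subunit, had levels of 4.62, 4.25 and 4.36 in T, against 4.97, 4.72 and 4.99 in Ctrl. These arrays did not overlap, and the difference of -0.48 ± 0.20 was not called (adjusted p = 0.0706).

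The isoforms of complex IV include the 5 genes called in T. Cox7a1, the heart and muscle form of subunit 7a, had levels of 3.74, 3.54 and 3.70 on the T arrays, against 2.36, 2.20 and 3.00 on the Ctrl arrays. All T arrays lay above all Ctrl arrays, and Cox7a1 was 2.20-fold higher in T (difference 1.14 ± 0.25, adjusted p = 0.00586). The M arrays read 3.02, 3.35 and 2.60 and overlapped Ctrl (difference 0.47, adjusted p = 0.186). The file places the probe on chromosome 7 from 30970337 to 30970948 (mm9, plus strand). The call in T held in 22 of 23 other settings and ended without Ctrl1 and Ctrl2 together, where Ctrl3 alone stood for its group (0.66, adjusted p = 0.148).

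Cox4i2, the form of subunit 4 known from lung and from low oxygen, was also higher in T. Its dim probe, on chromosome 2 from 152590711 to 152590770 (mm9, plus strand), was well above background on all 9 arrays. Levels were -3.02, -3.18 and -3.14 on the T arrays, -3.66, -3.47 and -3.48 on the M arrays, and -4.07, -3.86 and -3.70 on the Ctrl arrays. T lay above M and M above Ctrl with no overlap. Cox4i2 was 1.70-fold higher in T than in Ctrl (difference 0.76 ± 0.16, adjusted p = 0.00498), and M differed from Ctrl by 0.34 ± 0.16 (adjusted p = 0.148). The call in T held in 21 of 23 other settings, and ended in the authors' deposited value table (0.48, adjusted p = 0.198) and without Ctrl1 and Ctrl2 (0.59, adjusted p = 0.0706).

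Cox6a2, the heart and muscle form of subunit 6a, had the lowest difference of any member in M. Levels were 2.47, 2.23 and 2.34 on the T arrays, 0.48, 0.76 and 0.66 on the M arrays, and 1.65, 1.79 and 2.01 on the Ctrl arrays. The 3 groups did not overlap, with T highest and M lowest. Cox6a2 was 2.27-fold lower in M than in Ctrl, within 1 slide (difference -1.18 ± 0.17, adjusted p = 0.000986), and 3.27-fold lower in M than in T (-1.71 ± 0.17, adjusted p = 7.15e-05). It was 1.44-fold higher in T than in Ctrl (0.53 ± 0.17, adjusted p = 0.0289). The probe lies on chromosome 7 from 135349160 to 135349219 (mm9, minus strand). The lower level in M was called against Ctrl in 20 of 22 other settings and against T in 21 of 22.

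The higher Cox6a2 level in T was called in 15 of 23 other settings. With the replicate number as a block its adjusted p was 0.0546, or 0.0452 when T and Ctrl arrays alone were fitted, and without Ctrl1, Ctrl2, T1, T2 or T3 it was 0.0940, 0.0761, 0.0817, 0.0596 and 0.0858. In the authors' deposited value table, whose T2 column matches no scanner file, Cox6a2 stood at 0.562 in T2 and the difference of T from Ctrl was -0.03 (adjusted p = 0.962).

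Ndufa4l2, a relative of Ndufa4 known as a target of hypoxia-inducible factor, fell in T, and its probe lies on chromosome 10 from 126954149 to 126954208 (mm9, plus strand). Levels were -1.92, -1.94 and -2.18 in T, -1.93, -1.88 and -1.91 in M, and -0.77, -1.15 and -1.91 in Ctrl. Ctrl3 stood beside the T and M arrays. The difference from Ctrl was -0.74 ± 0.26 in T (adjusted p = 0.0405) and -0.63 ± 0.26 in M (adjusted p = 0.0975). The call in T was lost in 15 of 23 other settings, and without Ctrl1 and Ctrl2 the difference was -0.11 (adjusted p = 0.704). The adjusted p was 0.141 and 0.113 without Ctrl1 and Ctrl2 in turn, 0.0657, 0.0853 and 0.128 without T1, T2 and T3, and 0.0554, 0.0518 and 0.0565 without M1, M2 and M3. Median scaling gave -0.32 (adjusted p = 0.275).

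Cox8b, the heart and muscle form of subunit 8, was well above background on 1 of 3 T arrays, 2 of 3 M arrays and all 3 Ctrl arrays. Levels were -5.63, -6.97 and -6.13 in T, -5.85, -5.35 and -5.19 in M, and -4.92, -4.85 and -5.72 in Ctrl. T1 lay above Ctrl3, so T and Ctrl overlapped, and the difference of -1.08 ± 0.36 was called (adjusted p = 0.0331). The probe passed the filter through Ctrl alone, the group with the highest mean level. The p-value of a gene let in this way is not evidence of a fall, and background limits the size of the difference. The call ended in 11 of 22 other settings, among them median scaling (-0.66, adjusted p = 0.0994) and leaving out Ctrl1, Ctrl2, T2 or T3 (adjusted p = 0.0986, 0.110, 0.125 and 0.0664). Without T2 the difference was -0.71.

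Cox6b2, the testis form of subunit 6b, was lower in M than in T. Levels were -4.94, -4.58 and -4.94 on the M arrays, against -3.53, -3.95 and -3.95 on the T arrays, with Ctrl at -3.44, -3.90 and -4.72. All M arrays lay below all T arrays, and Ctrl overlapped both. The difference of M from T was -1.01 ± 0.30 (adjusted p = 0.0319), and that of M from Ctrl was -0.80 ± 0.30 (adjusted p = 0.0740). The call of M against T ended without M1, M3, T1, T2 or T3 (adjusted p = 0.0826, 0.0958, 0.102, 0.0670 and 0.0661). It was lost in 8 of 22 other settings, among them normexp background correction (-0.49, adjusted p = 0.118) the authors' deposited value table (-0.88, adjusted p = 0.129) and leaving out M1 and M3 together (-0.77, adjusted p = 0.302).

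**Figure D4:**
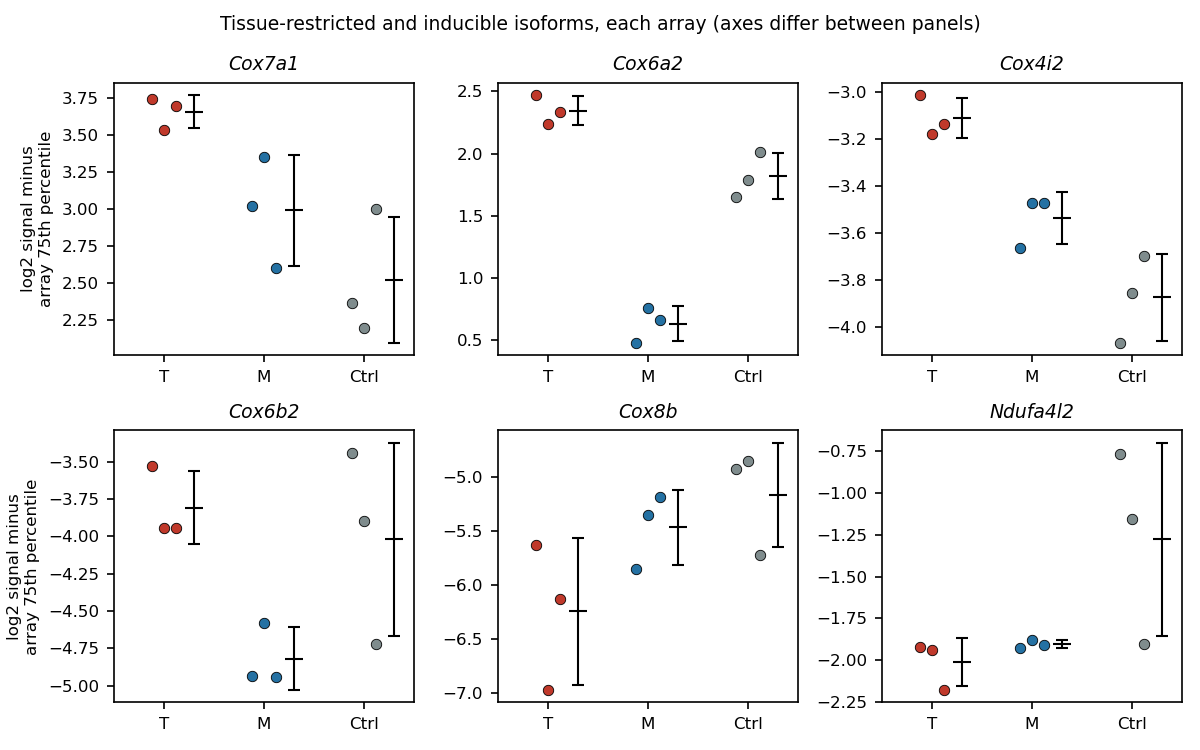
Levels of the 6 tested isoforms on each array (vertical axes, log2 signal minus the array's 75th percentile, scaled separately in each panel), with 1 point per array and the mean ± SD of 3 arrays. All T arrays lie above the M and Ctrl arrays for Cox7a1, Cox6a2 and Cox4i2, and all M arrays lie lowest for Cox6a2 (0.48 to 0.76).

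Complex V gave 15 general subunits and no call against Ctrl. The median difference was -0.31 in T, where 14 of 15 were below 0, and -0.28 in M, where 13 of 15 were. Atp5a1 and Atp5b encode the alpha and beta subunits of the catalytic head. Atp5a1 differed by -0.01 in T (95% interval -0.42 to 0.40) and by 0.04 in M (-0.37 to 0.45). Atp5b differed by -0.34 in T (-0.83 to 0.14) and by -0.43 in M (-0.92 to 0.06). Atp5h, a subunit of the peripheral stalk, had levels of 5.75, 5.21 and 5.31 in T, against 6.10, 5.70 and 5.87 in Ctrl. T1 lay above Ctrl2, and the difference of -0.47 was not called (adjusted p = 0.110).

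Atp5g3 is 1 of 3 genes for the c subunit, which forms the rotating ring of ATP synthase. Its probe lies on chromosome 2 from 73746519 to 73746578 (mm9, minus strand). Levels were 3.17, 3.35 and 3.17 on the M arrays, against 4.57, 3.70 and 3.89 on the T arrays, with Ctrl at 4.05, 3.61 and 3.57. All M arrays lay below all T and Ctrl arrays. The difference of M from T was -0.82 ± 0.24 (adjusted p = 0.0311), and that of M from Ctrl was -0.51 ± 0.24 (adjusted p = 0.138). The call of M against T ended without M1, M2, M3, T1 or T3 (adjusted p = 0.0771, 0.0552, 0.0887, 0.0891 and 0.0597). The other c subunit genes were not called in M against T: Atp5g1 differed by 0.26 (adjusted p = 0.370) and Atp5g2, fitted without Ctrl3, by -0.09 (adjusted p = 0.808).

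Over all members, 4 of the 85 fell and none rose in M against T, where 25.5% of all genes were called, 14.7% higher and 10.8% lower. The 4 were Cox6a2, Cox6b2, Ndufs5 and Atp5g3, and 10 of the 85 had an unadjusted p under 0.05. The M and T arrays did not overlap for 8 general subunits, where 48.3% of all genes showed no overlap. The median difference was 0.04 over the members and 0.11 over all genes, and 72 of 75 intervals of general subunits lay within 2-fold. The 4 genes taken by name that are not subunits were not called in any comparison.

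**Figure D5:**
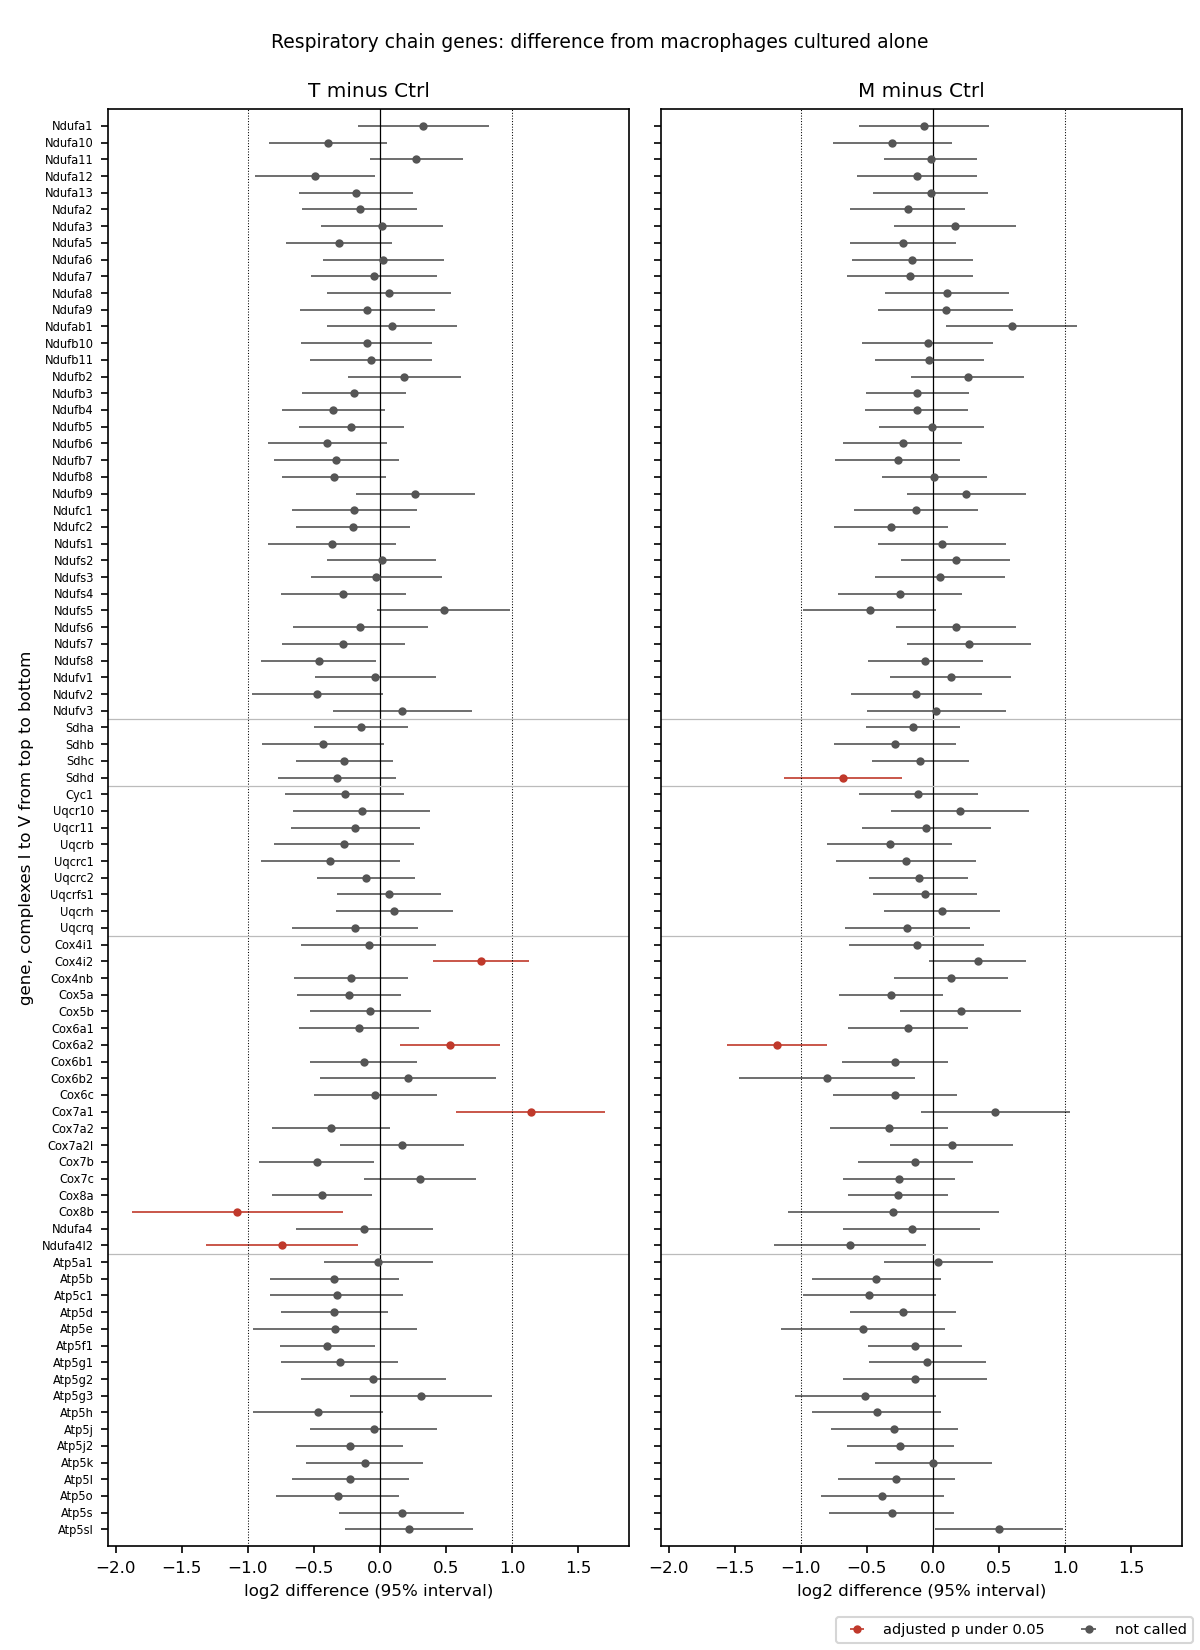
Log2 difference of each of the 85 tested genes from Ctrl (horizontal axis, points with 95% intervals as bars), T minus Ctrl on the left and M minus Ctrl on the right, genes down the page by complex. Red marks an adjusted p under 0.05 and dotted lines mark 2-fold. The 5 red genes of T minus Ctrl all stand in complex IV, and those of M minus Ctrl are Sdhd and Cox6a2.

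Genes that act with the complexes were counted from lists. Over the whole array, limma called 17.6% of tested genes up and 27.2% down in T. The matching shares in M were 12.2% and 11.1%. Brightness changes this reference: among the 3653 brightest genes, calls in either direction came to 16.5% in T and 8.19% in M. The lists were not matched for signal, so their shares were not tested against genes of like brightness. Of 78 tested genes of the mitochondrial ribosome, which makes the subunits encoded in mitochondrial DNA, 9 fell and none rose in T (median -0.24), and 1 fell in M (Mrpl42). With the replicate block 5 of the 9 were called, or 7 with T and Ctrl arrays alone, and with median scaling 0. Mrpl1 had levels of 1.39, 1.64 and 1.65 in T, against 2.27, 2.30 and 2.59 in Ctrl, with no overlap (difference -0.83 ± 0.18, adjusted p = 0.00511). Of 17 genes of mitochondrial biogenesis and genome maintenance, 5 fell (Ppargc1a, Nrf1, Twnk, Tfb1m and Ssbp1) and Pprc1 rose in T, and none was called in M against Ctrl. Nrf1, the gene of nuclear respiratory factor 1, had levels of 1.69, 1.72 and 1.72 in T, 2.10, 2.46 and 2.22 in M, and 2.67, 2.31 and 2.77 in Ctrl. All T arrays lay below the others, with a difference from Ctrl of -0.87 ± 0.18 (adjusted p = 0.00410). Ppargc1a, a coactivator of mitochondrial biogenesis, had levels of -7.01, -6.99 and -6.55 in T, -5.51, -5.67 and -5.50 in M, and -3.74, -4.22 and -5.51 in Ctrl. All T arrays lay lowest (difference from Ctrl -2.36 ± 0.38, adjusted p = 0.00119). Its dim probe was not well above background on all 9 arrays, so it passed the filter without every group passing. Background therefore limits both the size of this difference and what its p-value shows. The related coactivator Pprc1 differed by 0.77 ± 0.18 (adjusted p = 0.00654), and Tfam, which packages mitochondrial DNA, by -0.28 (adjusted p = 0.224).

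Of 42 assembly factors, which build the complexes without remaining in them, 2 fell in T (Ndufaf6 and Taco1, differences -0.94 and -0.88), and 3 rose (Sco1, Cox11 and Cox19) and 2 fell (Lyrm7 and Cox18) in M. Sco1, a copper chaperone for complex IV, had levels of -1.30, -1.23 and -0.99 in M, against -2.54, -2.24 and -1.80 in Ctrl, with no overlap (1.02 ± 0.21, adjusted p = 0.00763). Of 25 genes of mitochondrial import, Tomm40l and Timm29 rose and Tomm5 fell in T, and Tomm40l rose and Timm8a2 fell in M. Of 21 genes of the tricarboxylic acid cycle and its entry, Pcx and Pdk1 rose and Idh3a and Fh1 fell in T, and Pcx rose and Sucla2 and Idh3a fell in M. Of 13 genes of electron carriers and coenzyme Q synthesis, Coq4 and Coq5 fell in T and Coq3 in M. Cycs, the cytochrome c that links complexes III and IV, differed by -0.39 in T (adjusted p = 0.152) and by -0.38 in M (adjusted p = 0.200). Of a last list of 6 genes, Higd1a and Hk2 rose and Higd2a fell in T, and none was called in M. That list includes Cox7a2l, already counted above among the genes taken by name. Higd1a, a hypoxia-induced gene whose protein binds complex IV, had levels of 5.29, 5.09 and 4.89 in T, against 3.99, 4.09 and 4.32 in Ctrl, with no overlap (0.96 ± 0.17, adjusted p = 0.00229).

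Many of these list calls were not stable. Of the 29 in T, 19 ended when some single array was left out, and the other 10 were Higd1a, Pprc1, Ppargc1a, Nrf1, Twnk, Ndufaf6, Taco1, Mrpl1, Mrpl34 and Mrpl42. Of the 12 in M against Ctrl, 10 ended when some single array was left out, and the other 2 were Sco1 and Coq3. Median scaling ended 21 of the 22 falls in T, the exception being Ppargc1a. The Ppargc1a probe was not above background on all arrays, so its holding across settings says little about a fall. Median scaling ended 6 of the 7 falls in M, with Lyrm7 the exception, and none of the rises. Nrf1 had an adjusted p of 0.134 and Mrpl1 of 0.204 with median scaling. The Nrf1 call in T also ended when the mean of its tested probes stood for the gene.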

How the data were processed

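RNA of 9 samples was measured on 1-colour Agilent arrays. The deposited scanner files hold processed signal intensities, background-corrected by Agilent Feature Extraction 10.7.3.1 per the file headers. The authors' deposited value table holds intensities on a linear scale for Ctrl1 and the M arrays and log2 values for the others, as read from its columns. It served as an alternative only. Control and outlier-marked spots were left out, spots of a probe were averaged, and log2 intensity minus the array's 75th percentile was fitted in limma 3.58.1 (R 4.3.3; lmFit, eBayes) over 9 arrays, with 3 per group. Probes had to pass the well-above-background flag throughout 1 or more groups, the brightest probe stood for a gene, and Benjamini-Hochberg adjustment ran over 18262 genes at 0.05. Of 55681 probes, 22986 had no gene name and were not analysed here. The 9 arrays limit the precision.

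Members and lists were chosen with earlier results of these data known. Named genes are, per complex, the largest called changes against Ctrl, the complex II genes, core genes, all isoforms, and up to 5 of the largest called differences of M against T, of which there were 4. Ndufa12, Ndufab1, Cox7b, Atp5h, Atp5g1, Atp5g2 and the genes of the other lists were named after their values were seen. Deviations from the group mean correlated at 0.548, 0.12 and 0.375 between same-numbered T and Ctrl arrays. They correlated at -0.267, -0.186 and 0.017 between M and Ctrl, and at -0.273, -0.144 and 0.025 between M and T. Differently numbered arrays were not set beside these, so they do not establish a pairing, and no label states one. The limma step for T against Ctrl was tested on simulated gene values with independent noise. Scaling, filter, probe choice, blocks and weights were not part of that test. Alternatives were other scalings, background corrections, filters, probe rules, array weights, a replicate block and left-out arrays.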

Additional observations from a re-analysis of the deposited data

How the results depend on the processing

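The counts of called members depended on the scaling and on single arrays. With array weights, which ranged from 0.132 for Ctrl3 to 18.4 for Ctrl2, 15 members were higher and 27 lower in T against Ctrl, 14 and 6 in M against Ctrl, and 8 and 8 in M against T. These are 49.4%, 23.5% and 18.8% of the members, where 78.2%, 62.5% and 48.1% of all genes were then called. With median scaling, 9 were higher and 0 lower in T against Ctrl, and 1 and 1 in M against Ctrl, and the median member difference was 0.243 in T and 0.175 in M. With quantile normalization, 7 were higher and 0 lower in T, 3 and 1 in M against Ctrl, and 3 were higher in M against T. With the percentile taken over probes above background on all arrays, 6 were lower in T, 1 was higher in M against Ctrl, and 1 was higher and 7 lower in M against T. Without the filter on dim probes, 1 was lower in T, 2 were higher in M against Ctrl and 2 higher in M against T. With probes above background on all arrays alone, 1 was lower in T, and Cox8b was not tested. With only the 2 groups compared, 0 were lower in T, 1 in M against Ctrl, and 2 were higher and 7 lower in M against T. In the deposited value table, 1 was higher and 1 lower in T, 0 were lower in M against Ctrl and 2 in M against T, and Cox6a2 turned to -0.031 in T against Ctrl (adjusted p = 0.962), where its T2 column matches no scanner file. Without Ctrl1 and Ctrl2 together, 1 was higher and 0 lower in T, 1 lower in M against Ctrl, and 2 higher and 7 lower in M against T. Without M1 and M3 together, 0 were lower in T, 0 in M against Ctrl and 1 in M against T, and the median member difference was 0.087 in M against Ctrl and 0.275 in M against T. Leaving out each array in turn gave 2 to 5 higher and 0 to 3 lower in T, 0 to 4 higher and 1 to 4 lower in M against Ctrl, and 0 to 2 higher and 1 to 8 lower in M against T. The median member difference then ranged from -0.274 to -0.067 in T, from -0.252 to -0.047 in M against Ctrl and from -0.083 to 0.163 in M against T. With the replicate number as a block, 2 members were higher and 2 lower in T, and with T and Ctrl arrays alone 3 and 3. The block ended the call of Cox6a2 in T (adjusted p = 0.0546) and no other call among the members. The block on T and Ctrl arrays alone kept it (adjusted p = 0.0452) and added Ndufa12 (adjusted p = 0.0499). Of the 29 calls of the other lists in T, 8 ended with the block on 9 arrays and 3 with T and Ctrl arrays alone, and of the 12 in M against Ctrl 2 ended with the block on 9 arrays. The fit of T and Ctrl arrays alone was chosen after seeing the data. A slide block was not run, because T lies alone on its slide. The causes of these changes were not tested beyond what each setting leaves out. Signal over background limits the values of Cox8b, Ppargc1a and Timm8a2, and Cox7b2 and Cox8c have no level here.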

Other observations

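In the authors' deposited value table, the columns of M1 and M2 each equal the scanner file of the other, and the T2 column differs from its closest scanner file by a median of 0.269 log2 units. The other columns match their own files.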
